A study of Mus musculus with 12 samples.

Results

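The Schlafen family of the mouse was followed through primary oligodendrocyte precursor cells (OPCs) that were left unstimulated or exposed to inflammatory cytokines. Members were taken by symbol, and all 7 (*Slfn1*, *Slfn2*, *Slfn3*, *Slfn4*, *Slfn5*, *Slfn8* and *Slfn9*) were among the 45563 gene symbols measured. RNAseq was performed on 12 libraries in 4 groups of 3, made from WT mice and from germline TNFR2-/- mice, in which every cell carries the deletion. The labels give the strain as C57BL/6 for both genotypes. OPCs were drawn from cortices of pups (postnatal day 2 to 5 in the labels) with anti-PDGFRα beads and kept for 3 days in vitro. Stimulated (St) cells received TNF, IFNγ and IL1β at 25 ng/mL each for 3 h, and non-stimulated (NS) cells received PBS vehicle. The groups are called WT NS, WT St, TNFR2-/- NS and TNFR2-/- St, with the replicate numbers of the labels (2, 3 and 4 for WT, and 2, 4 and 5 for TNFR2-/-). NS and St libraries with the same genotype and number varied together over 13554 genes that averaged 1 FPKM or more. Such a pair is called a culture here. The main tests took the 12 libraries as independent and ignored this pairing, so their p-values measure the spread between libraries within groups. A fit with the culture as a block was run as an alternative.

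Schlafen proteins share a conserved N-terminal core and are sorted by length. Short members consist of little more than the core, intermediate members add a linker region, and long members also carry a helicase-like C-terminal region. The first members were described in developing T cells, where *Slfn2* is needed for quiescence, and many genes of the family respond to interferons in immune cells and fibroblasts. IFNγ acts through the kinases JAK1 and JAK2 on genes with GAS elements, and induces factors of the IRF family that bind interferon-stimulated response elements (ISREs), whereas TNF and IL1β act largely through NF-κB.

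All 7 members lie in 1 cluster of 263.8 kb on chromosome 11 (GRCm38), between 82951349 and 83215154. In order along the chromosome these are *Slfn5* (ENSMUSG00000054404, plus strand), *Slfn9* (ENSMUSG00000069793, minus), *Slfn8* (ENSMUSG00000035208, minus), *Slfn2* (ENSMUSG00000072620, plus), *Slfn1* (ENSMUSG00000078763, plus), *Slfn4* (ENSMUSG00000000204, plus) and *Slfn3* (ENSMUSG00000018986, plus). By their longest annotated protein, *Slfn1* and *Slfn2* are short members (337 and 378 residues), *Slfn3* and *Slfn4* intermediate (640 and 602), and *Slfn5*, *Slfn8* and *Slfn9* long (884, 910 and 910). *Slfn8* and *Slfn9* are the nearest relatives among the long members, with 92.7% identical coding bases over 2730 aligned bases, and *Slfn3* and *Slfn4* are as close at 92.7% over 1785. Even so, only 1.17% of the 100-base sequences of *Slfn8* transcripts also occur in *Slfn9*, and the share found in any other gene was at most 3.71% for each of the 7 members.

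Sequence upstream of the start site is shown for the 4 members that carried nearly all Schlafen reads, because all 4 were induced and because they differ in the motifs found there. The windows come from RefSeq (GRCm38.p6), read 5′ to 3′ on the strand of the gene and end at the base before the start. All 7 members had a window, and *Slfn8* had 2 starts, of which the outer is shown. Distances below are counted from these RefSeq starts. In GENCODE M21 *Slfn5* begins at 82951349, upstream of its whole window. There *Slfn1* begins at 83116849, whereas its window ends at 83116819. Capitals mark matches to the ISRE core (GAAA, any 2 bases, then GAAA), searched on both strands, in *Slfn5*, *Slfn8* and *Slfn9*, and the word ACTTCCTGG in *Slfn2*.
Slfn2, chr11:83064862-83065111, plus strand: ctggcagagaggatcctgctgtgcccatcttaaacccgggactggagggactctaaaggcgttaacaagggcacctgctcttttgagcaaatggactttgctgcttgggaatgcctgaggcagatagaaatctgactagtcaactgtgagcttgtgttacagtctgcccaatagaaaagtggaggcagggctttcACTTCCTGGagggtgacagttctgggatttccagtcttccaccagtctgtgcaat
Slfn5, chr11:82951852-82952101, plus strand: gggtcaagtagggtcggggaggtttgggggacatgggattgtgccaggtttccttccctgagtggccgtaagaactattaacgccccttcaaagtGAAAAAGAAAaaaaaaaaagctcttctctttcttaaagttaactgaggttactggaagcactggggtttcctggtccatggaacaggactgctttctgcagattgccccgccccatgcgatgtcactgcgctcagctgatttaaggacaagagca
Slfn8, chr11:83020811-83021060, minus strand: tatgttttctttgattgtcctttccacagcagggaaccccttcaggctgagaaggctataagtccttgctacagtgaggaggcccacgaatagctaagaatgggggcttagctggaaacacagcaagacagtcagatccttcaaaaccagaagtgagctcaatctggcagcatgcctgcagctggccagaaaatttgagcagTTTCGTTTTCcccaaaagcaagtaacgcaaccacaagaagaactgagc
Slfn9, chr11:82991831-82992080, minus strand: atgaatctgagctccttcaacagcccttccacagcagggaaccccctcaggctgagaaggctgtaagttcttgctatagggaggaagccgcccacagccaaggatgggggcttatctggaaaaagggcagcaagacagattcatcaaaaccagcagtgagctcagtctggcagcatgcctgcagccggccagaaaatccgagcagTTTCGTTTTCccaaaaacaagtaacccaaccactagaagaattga

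The ISRE core was found in the 3 long members and in none of the other 4. In *Slfn8* and *Slfn9* the match lies at nearly the same place, from base -48 to -39 and from -45 to -36 relative to the start, with the same 10 letters in the same orientation, whereas the *Slfn5* match lies farther out, from -155 to -146, beside a run of A. The windows of *Slfn8* and *Slfn9* are 84.9% identical over 292 aligned bases, so these are not independent occurrences. The motif was present in the 300-base windows of 3.99% of 27025 genes. No member had the GAS core TTCNNNGAA, which 9.55% of genes had, and a match to the NF-κB consensus was found in *Slfn1* and *Slfn9*, against 9.55% of genes. These letters describe the windows and do not show that a factor binds.

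The short and intermediate members share another word, noticed after the windows had been read. ACTTCCTGG, which holds the core recognized by ETS factors, was present in all 4 of them and in none of the long members. It lay in the same orientation, between base -74 and base -34, and 0.999% of genes had it on either strand. Because it was picked from these same windows as a word that members share as written, its presence and orientation there are not a test. The 4 genes are also related in sequence, so these need not be independent occurrences. The word is shown here for the 3 members that were hardly transcribed, to be set beside the window of the induced *Slfn2*.
Slfn1, chr11:83116734-83116766, plus strand: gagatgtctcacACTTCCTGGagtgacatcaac
Slfn3, chr11:83191276-83191308, plus strand: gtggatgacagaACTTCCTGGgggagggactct
Slfn4, chr11:83175101-83175133, plus strand: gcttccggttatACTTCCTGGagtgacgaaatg

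Values were deposited as FPKM, from which whole reads were recovered, and libraries held 26412530 to 29712532 reads on genes. The divisor used for FPKM is not the length of the gene (99 bases for *Slfn2*, with 1664 bases of exon), so levels of different genes are compared as reads per kb of exon per 1000000 reads on genes (RPKM). Without the length the unit is called RPM. OPC markers were at 7246 to 10130 RPM, and none of the 8 was at 0 in any library. The 12 microglia and macrophage markers summed to 20 to 60 reads in a library with 5 to 8 of them at 0. The 10 lymphocyte markers summed to 19 to 96 reads with 6 to 8 of them at 0. Most of these were reads of *Klrb1c* and *Cd79a*, the latter with 36 to 80 in WT and 5 to 34 in TNFR2-/- libraries. The 7 endothelial markers summed to 796 to 1812 reads in a library. Most of these were reads of *Flt1* (633 to 1697) and *Kdr* (63 to 224), while *Cldn5* had 6 to 40 and *Pecam1* 3 to 12. The TNFR2 gene *Tnfrsf1b* did not fall in the libraries labelled TNFR2-/-. It had 15, 12 and 24 reads in WT NS and 322, 346 and 213 in TNFR2-/- NS. In St cells it had 145, 61 and 105 reads in WT and 282, 356 and 290 in TNFR2-/-. On the scale of log2(FPKM + 0.5) the difference was 2.35 ± 0.21 SE in NS cells (limma, adjusted p = 0.00134). In St cells it was 1.28 ± 0.21 SE (limma, adjusted p = 0.016). The added 0.5 FPKM exceeds the WT NS values (0.138 to 0.248 FPKM), so 2.35 understates the NS difference in reads. Values per gene do not show which exons the reads cover, so TNFR2-/- names the label of a library throughout, and each direction between genotypes rests on these labels.

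Before stimulation, OPCs transcribed *Slfn9* and almost no other member. *Slfn9* had 433, 349 and 356 reads in the WT NS libraries and 446, 268 and 335 in the TNFR2-/- NS libraries, or 2.24 ± 0.22 and 1.98 ± 0.52 RPKM (SD, n = 3). It made up 96.5% to 99.5% of the Schlafen reads of each NS library. *Slfn2* had 1, 6 and 2 reads in WT NS and 8, 2 and 9 in TNFR2-/- NS. *Slfn8* had 0, 2 and 2 reads in WT NS and 3, 0 and 3 in TNFR2-/- NS, and *Slfn5* had 1 read in 1 library of each genotype. At these counts the level of *Slfn9* stood apart from the other 3, and the order of those 3 was not readable in single libraries. Since RNA was taken from whole cultures, few cells with much of a transcript and many cells with little of it cannot be told apart.

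With 3 h of cytokines, 4 of the 7 members were higher in every St library than in any NS library of the same genotype. These were the short member *Slfn2* and the long members *Slfn5*, *Slfn8* and *Slfn9*. Of all genes tested, 13.7% were higher without overlap in WT St cells and 12.7% in TNFR2-/- St cells. *Slfn2* had 169, 91 and 137 reads in WT St and 321, 317 and 875 in TNFR2-/- St. *Slfn8* had 120, 94 and 84 reads in WT St and 241, 202 and 627 in TNFR2-/- St. *Slfn5* had 42, 35 and 45 reads in WT St and 93, 95 and 278 in TNFR2-/- St. The counts thus went from at most 9 to at least 35 reads a library, and among the 3 genes the St libraries kept similar proportions, with 2.6 to 4.02 *Slfn2* reads for each *Slfn5* read. *Slfn9* rose from its higher start to 1284, 1176 and 1069 reads in WT St and 1608, 1453 and 2258 in TNFR2-/- St. The plot of levels by library shows these changes on 1 scale.

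**Figure D1:**
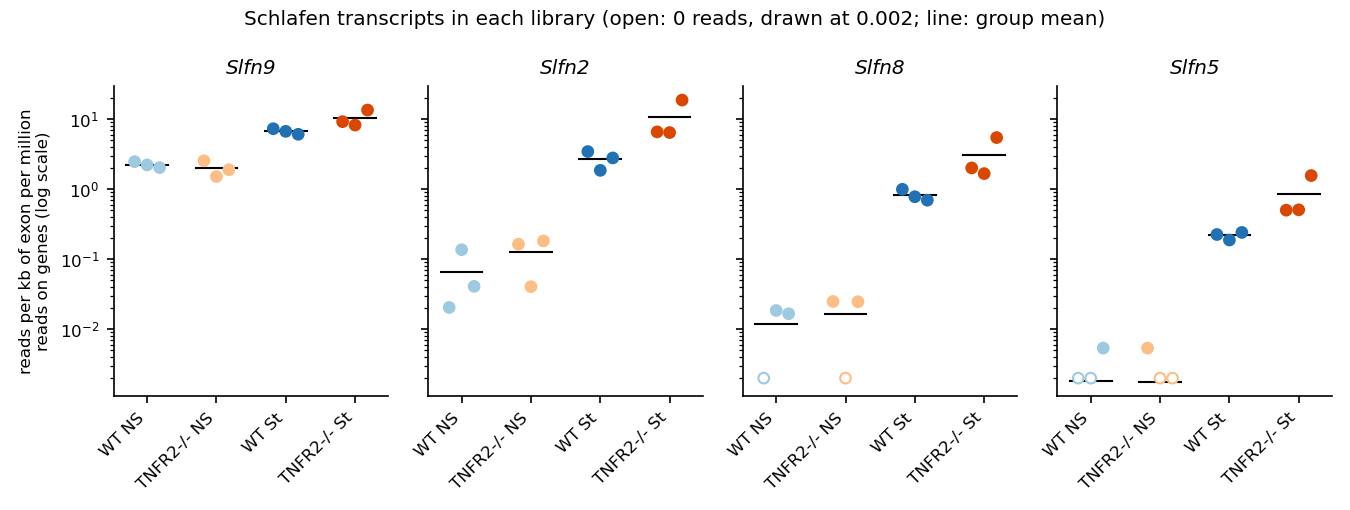
RPKM, reads per kb of exon per 1000000 reads on genes (log scale), of *Slfn9*, *Slfn2*, *Slfn8* and *Slfn5*, 1 point a library and 4 groups of 3, with open points for libraries with 0 reads drawn at the bottom of the axis and lines for group means. *Slfn9* starts at a mean of 2.24 in WT NS and 1.98 in TNFR2-/- NS cells, the other 3 genes start at 0.182 or less, and all 4 are higher in every St library.

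The size of these changes was estimated with limma from log2(FPKM + 0.5), fitting 4 group means to the 12 libraries at once, for the 18081 genes that averaged 0.1 FPKM or more. Calls needed a Benjamini-Hochberg adjusted p no higher than 0.05, a change of 1.5-fold or more and an average of 1 FPKM or more. In WT OPCs the long member *Slfn8* rose by 5.26 ± 0.56 SE on this scale (adjusted p = 8.31e-05), from 0.50 ± 0.435 to 35.1 ± 6.56 FPKM (SD, n = 3). *Slfn2* rose by 4.97 ± 0.57 (adjusted p = 0.000154), from 1.09 ± 1.02 to 44.4 ± 13.1 FPKM, and *Slfn5* by 4.45 ± 0.40 (adjusted p = 2.43e-05), from 0.102 ± 0.177 to 12.4 ± 1.55 FPKM. *Slfn9* rose less, by 1.58 ± 0.20 (adjusted p = 0.000357), from 113 ± 11.0 to 337 ± 30.8 FPKM. These 4 members were called higher, as were 4.58% of all genes tested, and their groups did not overlap, as was the case for 13.7%. *Slfn5* and *Slfn8* reached a mean of 1 FPKM only through the St groups, so their calls follow in part from the filter.

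The 0.5 FPKM added before the logarithm shrinks the folds of genes near 0, so the summed reads of each group are given as well, with 95% intervals for counting error only. In WT cells *Slfn2* had 397 St reads against 9 NS reads, 42.4 times as many after scaling to library totals (22.1 to 93.5). For *Slfn8* the counts were 298 and 4, a ratio of 71.7 (27.7 to 264.8). *Slfn5* had 122 reads against 1, which gives a ratio of 117 (20.7 to 4673), and *Slfn9* had 3529 against 1138, a ratio of 2.98 (2.79 to 3.19). The intervals of the first 3 genes overlap widely, so these counts give no order among them, whereas all 3 lie above that of *Slfn9*. Within cultures, the *Slfn9* ratio of St to NS was 2.95, 3.02 and 2.99 in WT replicates 2, 3 and 4. For *Slfn2* it was 168, 13.6 and 68.1, on 1, 6 and 2 NS reads. The interval for its summed reads does not cover this spread.

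In the OPCs labelled TNFR2-/-, the same 4 members were called higher on stimulation, against 5.41% of all genes, with groups that did not overlap, against 12.7%. *Slfn8* rose by 6.72 ± 0.56 SE (limma, adjusted p = 9.78e-06), from 0.704 ± 0.610 to 130 ± 89.3 FPKM (SD, n = 3). *Slfn5* rose by 6.17 ± 0.40 (adjusted p = 1.56e-06), from 0.102 ± 0.176 to 48.7 ± 34.8 FPKM, and *Slfn2* by 6.02 ± 0.57 (adjusted p = 2.79e-05), from 2.12 ± 1.26 to 174 ± 116 FPKM. *Slfn9* rose by 2.37 ± 0.20 (adjusted p = 1.31e-05), from 99.7 ± 26 to 518 ± 141 FPKM. In summed reads the ratios were 81.2 for *Slfn2* (51.8 to 135.2), 182 for *Slfn8* (83.2 to 496.4), 475 for *Slfn5* (84.8 to 18800, against 1 NS read) and 5.17 for *Slfn9* (4.84 to 5.53). Without TNFR2-/- St replicate 5 these ratios were 50.6, 111, 283 and 4.39. Within cultures *Slfn9* was 3.62, 5.43 and 7.11 times its NS level in replicates 2, 4 and 5, all above the 3 WT cultures. For *Slfn2* the ratios were 40.2, 159 and 103, on 8, 2 and 9 NS reads.

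**Figure D2:**
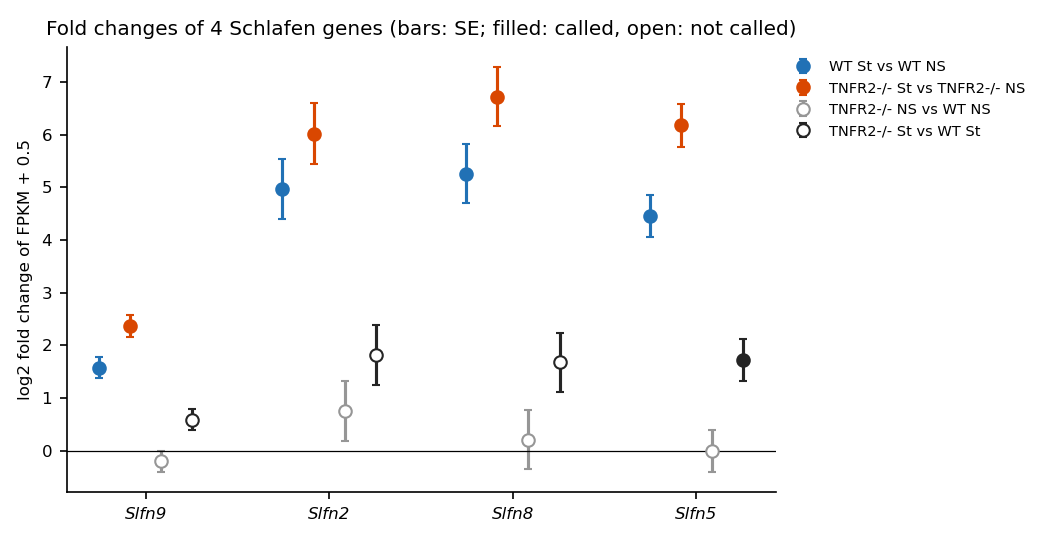
Log2 fold changes of FPKM + 0.5 for *Slfn9*, *Slfn2*, *Slfn8* and *Slfn5* in 4 comparisons, with bars for the SE and filled points where the gene was called. Both stimulation comparisons lie between 1.58 and 6.72 for all 4 genes, the NS comparison of genotypes lies between -0.20 and 0.76, and in St cells 1 of the 4 genotype differences is called.

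In NS cells the genotypes did not separate for any member, and 0 were called, against 2.9% of all genes. The *Slfn9* difference was -0.20 ± 0.20 SE on the log2 scale, with a 95% interval from -0.66 to 0.25 (limma, adjusted p = 0.544). *Slfn2* differed by 0.76 ± 0.57 (-0.51 to 2.02, adjusted p = 0.411), *Slfn8* by 0.21 ± 0.56 (-1.02 to 1.44, adjusted p = 0.84) and *Slfn5* by 0.00 ± 0.40 (-0.89 to 0.89, adjusted p = 1). The libraries of the genotypes overlapped for all 4 genes, whereas 19.9% of all genes were higher and 14.3% lower without overlap in TNFR2-/- NS cells, 0 members had an unadjusted p under 0.05, and voom on the recovered reads called 0 as well. For the last 3 genes the counts of 0 to 9 reads leave wide intervals, and a difference within them was not detectable at this depth.

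In St cells, all 4 induced members were higher in each TNFR2-/- library than in any WT library, which was the case for 15.4% of all genes. On the log2 scale the difference was 1.81 ± 0.57 SE for *Slfn2* (95% interval 0.54 to 3.08, limma adjusted p = 0.0823) and 1.72 ± 0.40 for *Slfn5* (0.83 to 2.61, adjusted p = 0.0406). It was 1.68 ± 0.56 for *Slfn8* (0.44 to 2.91, adjusted p = 0.093) and 0.59 ± 0.20 for *Slfn9* (0.14 to 1.04, adjusted p = 0.102). *Slfn5* was thus the 1 member called, against 1.18% of all genes called higher, and the other 3 did not pass the test. The median over the 4 tested members was 1.70, against 0.00 over all genes. In summed reads TNFR2-/- St cells held 3.87 times the *Slfn2* of WT St cells, 3.88 times the *Slfn5*, 3.65 times the *Slfn8* and 1.53 times the *Slfn9*. Without TNFR2-/- St replicate 5 these ratios were 2.41, 2.31, 2.23 and 1.30.

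TNFR2-/- St replicate 5 stood above the other cultures of its group. There *Slfn5* was at 3.11 times, *Slfn8* at 2.97 times, *Slfn2* at 2.88 times and *Slfn9* at 1.55 times the mean of replicates 2 and 4. Of 13554 genes that averaged 1 FPKM or more, 162 (1.2%) were at least 2-fold above both other libraries of the group in replicate 5, against 55 in replicate 2 and 41 in replicate 4, and 3 of the 162 were Schlafen members. The summed level of 7 astrocyte markers, none of which was at 0 in any library, moved with genotype and with this culture. It was 1630 to 1750 RPM in WT St, 2470 and 2542 in TNFR2-/- St replicates 2 and 4 and 3860 in replicate 5, and in NS cells 1728 to 1992 in WT, 2615 and 2477 in TNFR2-/- replicates 2 and 4 and 3920 in replicate 5. Of the 8 OPC markers, 2 were called lower and 0 higher in TNFR2-/- St than in WT St cells, against 0.614% of all genes called lower. The part of astrocytes or other cells in the Schlafen difference was not tested.

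Without TNFR2-/- St replicate 5 the *Slfn5* difference was 1.18 and its adjusted p 0.0774. The call was also lost without WT NS replicate 2, 3 or 4 (adjusted p = 0.0542, 0.0538 and 0.0556), WT St replicate 2, 3 or 4 (0.0761, 0.139 and 0.109) or TNFR2-/- St replicate 2 (0.0574). With the culture as a replicate block the adjusted p was 0.0658, and over all alternatives it ranged from 0.024 to 0.143. With voom on the recovered reads, 3 members were called, *Slfn2* (adjusted p = 0.0308), *Slfn5* (0.0361) and *Slfn8* (0.0415), and without TNFR2-/- St replicate 5 the same 3 were called (0.0282, 0.024 and 0.0447), an alternative chosen after seeing the data. The plot of St cultures shows that WT libraries lay below those of TNFR2-/- replicates 2 and 4 for each gene also when replicate 5 is set aside.

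**Figure D3:**
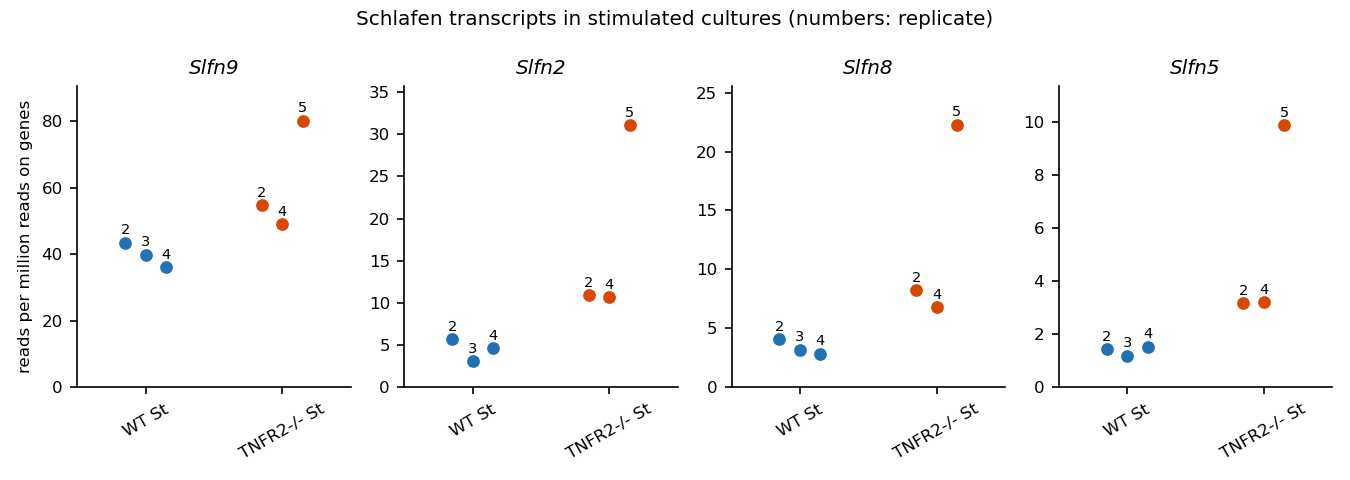
RPM (reads per 1000000 reads on genes) of *Slfn9*, *Slfn2*, *Slfn8* and *Slfn5* in the 3 WT St and 3 TNFR2-/- St libraries, 1 point a library with its replicate number, each axis starting at 0. The 2 groups do not overlap for any of the 4 genes, and TNFR2-/- replicate 5 is the highest library in each panel.

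Whether stimulation acted differently in the genotypes was tested as an interaction, and 0 of the 4 members passed, with 0.00553% of all genes called (1 gene). The rise in TNFR2-/- cells exceeded that in WT cells by 1.72 ± 0.57 SE for *Slfn5* (95% interval 0.46 to 2.98, unadjusted p = 0.0121, limma adjusted p = 0.537) and by 0.79 ± 0.29 for *Slfn9* (0.16 to 1.43, unadjusted p = 0.0195, adjusted p = 0.56). For *Slfn8* it was 1.47 ± 0.79 (-0.28 to 3.21, adjusted p = 0.696) and for *Slfn2* 1.05 ± 0.81 (-0.74 to 2.84, adjusted p = 0.808). Thus 2 members had an unadjusted p under 0.05, and voom called 0. For *Slfn5* and *Slfn8* the value rests on NS counts of 0 to 3 reads.

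The make-up of the family's reads changed along with its level. Schlafen reads came to 9.09 to 15.6 RPM in NS libraries, 45.3 to 54.7 in WT St, and 69.7, 77.2 and 143.6 in TNFR2-/- St replicates 4, 2 and 5. The share of *Slfn9* went down to 79.5% to 84.1% in WT St and to 70.9%, 70.3% and 55.9% in TNFR2-/- St replicates 2, 4 and 5. In the latter 3 libraries *Slfn2* held 14.2%, 15.3% and 21.7%, *Slfn8* 10.6%, 9.77% and 15.5%, and *Slfn5* 4.10%, 4.60% and 6.88%. Replicate 5, with the most Schlafen reads, thus had the lowest share of *Slfn9* of the 12 libraries, although its *Slfn9* count was also the highest.

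**Figure D4:**
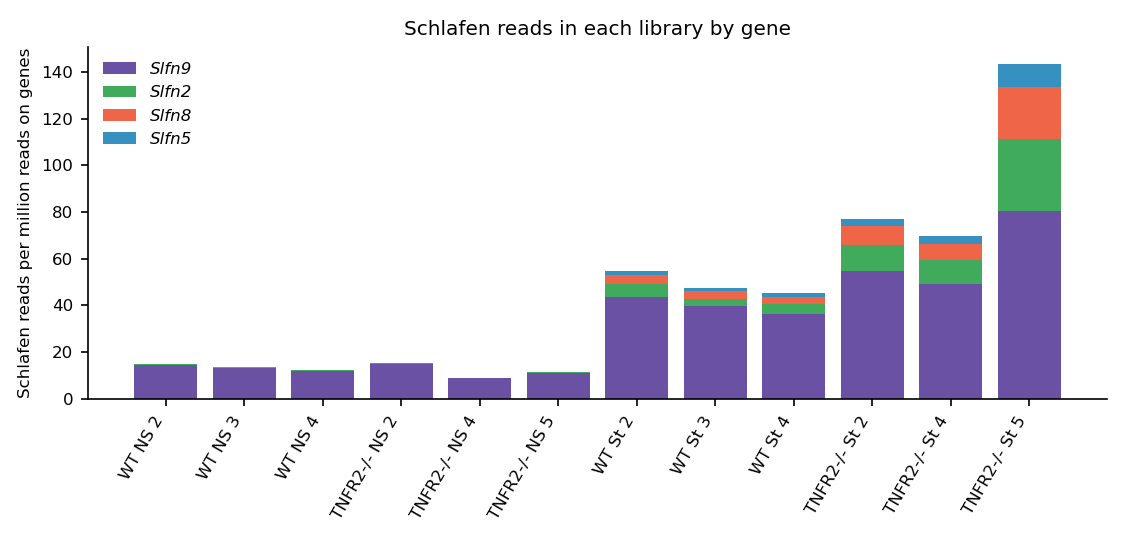
Schlafen reads per 1000000 reads on genes (RPM) in each of the 12 libraries, stacked by gene. NS bars reach at most 15.6 and are almost wholly *Slfn9*, WT St bars reach 45.3 to 54.7, and TNFR2-/- St replicate 5 reaches 143.6 with 55.9% from *Slfn9*.

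Per kb of exon, *Slfn9* led the family in WT St cells, where it stood at 6.68 ± 0.61 RPKM (SD, n = 3), with *Slfn2* at 2.69 ± 0.80, *Slfn8* at 0.822 ± 0.154 and *Slfn5* at 0.218 ± 0.027, and the ranges of neighbours in this order did not overlap. In TNFR2-/- St replicates 2 and 4 *Slfn9* also lay above *Slfn2*, at 9.18 and 8.21 against 6.57 and 6.42, and replicate 5 reversed the order, at 13.4 against 18.7. The group ranges overlapped, and the mean of *Slfn2* (10.6 ± 7.03) rests on replicate 5. *Slfn8* followed at 3.04 ± 2.09 and *Slfn5* at 0.856 ± 0.611. *Slfn5*, the lowest of the 4 in both genotypes, shares 559 exon bases (8.84%) with the antisense gene *Slfn5os*, and as the strand setting of the counting is not given in the sources used here, reads there cannot be assigned to a strand.

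The other 3 members stayed at the limit of detection in all groups. The short member *Slfn1* had 1 read in each of WT St replicates 3 and 4 and 0 in the other 10 libraries. The intermediate member *Slfn3* had 0 or 1 read in each WT library, 0 in all TNFR2-/- NS libraries, and 4, 0 and 3 in TNFR2-/- St. *Slfn4*, its neighbour in the cluster, was above 0 in TNFR2-/- St replicate 5 alone, at 0.0990 FPKM. All 3 were below the mean of 0.1 FPKM needed for the test, and when they were included in a fit without that filter (29325 genes) none passed, with adjusted p of 0.0942 or more in each comparison. *Slfn3* and *Slfn4* were thus hardly detected on either side of the cytokine treatment, while *Slfn2*, in the same cluster and with the same ACTTCCTGG word before its start, had 91 to 875 reads after it.

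The neighbourhood of the cluster was examined through 12 genes lying 7.9 to 257.9 kb from it. In each genotype 1 of the 12 was called higher on stimulation and 0 lower, with medians of 0.01 in WT and 0.05 in TNFR2-/- cells on the log2 scale, against -0.06 and -0.11 over all genes. The called neighbour was *Unc45b*, a chaperone gene for muscle myosin that lies next to *Slfn5*. It had 5, 3 and 5 reads in WT NS and 18, 23 and 18 in WT St, and 4, 4 and 2 in TNFR2-/- NS and 12, 13 and 29 in TNFR2-/- St. It rose by 1.81 ± 0.31 SE in WT (limma, adjusted p = 0.00226) and 1.94 ± 0.31 in TNFR2-/- cells (adjusted p = 0.00109), and the other 11 neighbours changed by -0.44 to 0.48 and did not pass. The pseudogene *Slfn10-ps*, between *Slfn8* and *Slfn2*, went from 1, 1 and 1 reads in WT NS to 10, 11 and 10 in WT St, and from 1, 0 and 3 in TNFR2-/- NS to 35, 25 and 66 in TNFR2-/- St. Its mean of 0.811 FPKM was below the minimum for a call (limma, adjusted p = 0.0218 in WT and 7.31e-05 in TNFR2-/- cells). That minimum depends on the FPKM divisor, which was 571 bases for *Slfn10-ps* and 94 to 116 for the induced members. In St cells *Slfn10-ps* was higher in TNFR2-/- than in WT by 1.36 ± 0.25 SE (limma, adjusted p = 0.0215). The added 0.5 FPKM shrinks this value, since the WT St mean was 0.602 FPKM. It is therefore not ranked against the induced members. In summed reads, TNFR2-/- St had 126 and WT St 31. The groups did not overlap there, as was the case for 15.4% of all genes. Other genes, among them *Slfn8* and *Slfn9*, hold 7.84% of the 100-base sequences of *Slfn10-ps*.

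**Figure D5:**
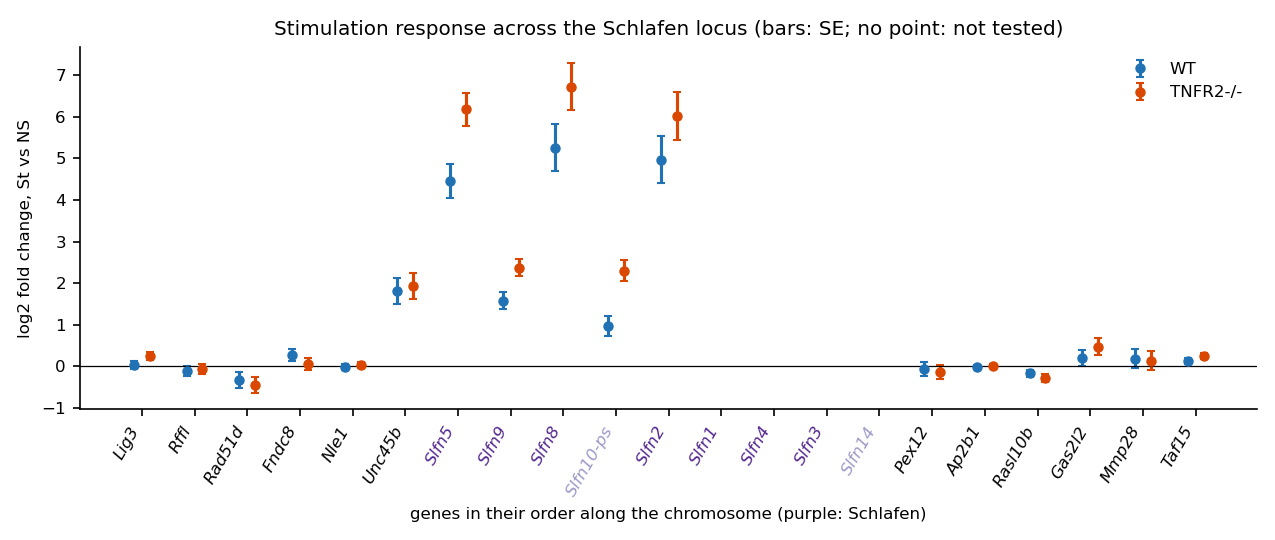
Log2 fold change on stimulation, St against NS, in WT and TNFR2-/- cells for Schlafen genes and 12 neighbours in their order along chromosome 11, with bars for the SE and no point for genes below the filter. The changes of 1.58 to 6.72 in the 4 induced members are flanked by neighbours between -0.44 and 0.48, apart from *Unc45b* at 1.81 and 1.94.

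Genes of the pathways through which these cytokines signal rose in both genotypes. Of 26 genes of interferon and NF-κB signaling, 24 were tested, and 20 were called higher on stimulation in WT and 20 in TNFR2-/- cells, with 0 lower, against 4.58% and 5.41% of all genes called higher. Their median change was 1.74 in WT and 1.75 in TNFR2-/- cells on the log2 scale, against -0.06 and -0.11 over all genes. In WT cells *Irf8* rose by 8.15 ± 0.14 SE, *Irf1*, an early IFNγ target, by 7.28 ± 0.13 and *Socs1*, an inhibitor of JAK signaling, by 5.69 ± 0.16 (limma, adjusted p = 1.25e-10, 1.25e-10 and 5.3e-09). Between the genotypes in St cells *Irf8* differed by 0.25 ± 0.14 SE (limma, adjusted p = 0.264), *Irf1* by 0.07 ± 0.13 (adjusted p = 0.765) and *Socs1* by 0.34 ± 0.16 (adjusted p = 0.217).

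Between St genotypes, 2 of the 24 were called higher, against 1.18% of all genes, and are named here after their values were seen. The IL1 receptor gene *Il1r1* was higher by 1.21 ± 0.29 SE (limma, adjusted p = 0.044), and *Irf7*, an interferon-induced factor that amplifies the type I response, by 0.87 ± 0.21 (adjusted p = 0.0458). In NS cells 2 of the 24 were called higher and 1 lower in TNFR2-/- cells, against 2.9% of all genes called in either direction. There *Il1r1* was already higher by 1.09 ± 0.29 SE (limma, adjusted p = 0.0417) and *Irf1* by 0.66 ± 0.13 (adjusted p = 0.0188). *Irf7* differed in NS cells by -0.12 ± 0.21 (adjusted p = 0.742). *Irf7* had 124, 96 and 135 reads in WT St and 207, 169 and 287 in TNFR2-/- St, so that its libraries did not overlap and replicate 5 was again the highest. The median over the list was 0.03, against 1.70 for the Schlafen members tested. The comparisons of stimulation and of genotype share the WT St libraries and are not independent of each other.

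Among 13550 other genes that averaged 1 FPKM or more, the 3 with the most similar pattern over the 12 libraries were named for each induced member, by Pearson correlation of log2(FPKM + 0.5). For *Slfn5* these were *Irf7* (r = 0.997), *Ifi203* (0.996) and *Il6* (0.994), for *Slfn8* *B4galt5* (0.992), *Aim1* (0.992) and *Mndal* (0.989), and for *Slfn2* *Aim1* (0.992), *Cdyl2* (0.989) and *B4galt5* (0.988). For *Slfn9* they were *Erap1* (0.99), whose product trims peptides for MHC-I, *Wisp1* (0.985) and *Ly6c1* (0.984). Among themselves the 4 members correlated at 0.968 to 0.992 over 12 libraries and at 0.953 to 0.995 (Pearson) over the 6 St libraries. These values describe libraries that share the split by stimulation and, in the St groups, the high replicate 5.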

How the data were processed

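Per the methods of the study, paired reads of 12 OPC libraries were trimmed (Trim Galore), and STAR served both for alignment to GRCm38 and for counts per gene. The deposited values are FPKM, computed by the authors per gene symbol in 1 table for NS and 1 for St libraries, each with 45792 entries. Here 99 repeated symbols (229 entries) were left out. Whole reads were recovered from the steps of the FPKM for 26635 of 26636 genes above 0 in at least 2 libraries (tolerance 0.02 reads). Tests used limma 3.58.1 in R 4.3.3 with a trended prior and, in the main fit, no term for culture. The 4 groups came from the labels. With 3 libraries against 3, the smallest p of an exact permutation test would be 0.1. In 6 of 6 cases NS and St libraries of the same genotype and number deviated together from their group means (r = 0.338 to 0.649 over 13554 genes), so numbers pair libraries within a genotype, whereas the 4 same-number pairs across genotypes in 1 condition gave -0.055 to 0.204. Transcripts and positions came from GENCODE M21, and alignments were made with Biopython 1.88. The procedure was tested on simulated data. Intervals of read ratios cover counting error only. Members and gene lists were chosen with earlier results of these data known. By rule, the text names all members, the 3 most similar genes for each induced member, *Tnfrsf1b* and up to 4 genes of each list. *Il1r1* and, in the comparisons of genotypes, *Irf7* were named outside this rule, after their values were seen. Protein sequences were not used here. A gene that the naming rule would include is not reported here.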

Additional observations from a re-analysis of the deposited data

How the results depend on the processing

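In WT and in TNFR2-/- cells the number of members called on stimulation was 4 under each of 27 alternatives, and for the NS genotypes (27 alternatives) and the interaction (26) it was 0 under each. The alternatives were pseudocounts of 0.1 and 1 FPKM, filters, scalings, limma without trend, library weights, voom, looser thresholds, a replicate block by culture or by number, the 6 libraries compared alone, and each library left out. The St genotype comparison was less stable. In place of 1 member it had 0 with a pseudocount of 0.1 (*Slfn5* adjusted p = 0.143), with no filter (0.0719), with the culture (0.0658) or the number (0.0805) as replicate block, and with 6 libraries alone (0.0986). It had 3 with voom, also without TNFR2-/- St replicate 5, and between 0 and 1 with single libraries left out. The replicate block changed no other call. The cause of these changes was not tested, and some of these fits held fewer libraries. Depth limits *Slfn1*, *Slfn3*, *Slfn4* and the NS levels of *Slfn2*, *Slfn5* and *Slfn8*, which rest on fewer than 10 reads a library.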

Other observations

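Apart from *Slfn10-ps*, the other symbols that carry the Schlafen name stayed near 0. *Slfn14*, a long member at the edge of the cluster, had 0 to 2 reads in each library, 1 in all of WT NS, 3 in TNFR2-/- NS, 0 in WT St and 1 in TNFR2-/- St. *Slfnl1*, a Schlafen-like gene elsewhere in the genome, had 0 to 4 reads in each library, and the antisense gene *Slfn5os* was above 0 in TNFR2-/- St replicate 4 alone, at 0.250 FPKM.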
